A study of Mus musculus with 6 samples.

Results

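Kit and Kitl, the genes of the Kit receptor and of its ligand, were followed as the rows with these symbols in all 6 RNA sequencing libraries, and so make up 2 of 20367 genes. The libraries came from C57BL/6J cortices, in a study that set cortical projection neurons beside interneurons by a Tbr2 lineage reporter. All embryos came from a cross of heterozygous Tbr2(Eomes)-GFP mice with homozygous DCX-mRFP mice and carried both reporters. GFP reports Tbr2 (Eomes), which intermediate progenitors use as a transcription factor, and mRFP reports the doublecortin gene (DCX) of young neurons. Cells with both colors were collected as intermediate progenitor cell-derived neurons (IPN). Cells with red fluorescence alone were collected as non-IPN, a gate that takes any doublecortin-positive cell without GFP. Each population gave 1 library at embryonic days E13.5, E15.5 and E16.5. At E13.5 and E16.5 a library came from 10000 sorted cells whose RNA was amplified, and at E15.5 from 1000000 cells without amplification. The labels name no separate animals or litters, so p-values measure the spread between these libraries only.

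Kit is a receptor tyrosine kinase of class III, the family that also holds the receptors for Csf1, Flt3 ligand and the platelet-derived growth factors. Kitl, also called stem cell factor, is made as a protein anchored in the membrane of the sending cell and can be cut free by proteases. A ligand dimer joins receptor molecules, which phosphorylate each other and recruit adaptors of the Ras, phosphatidylinositol 3-kinase, phospholipase C and Src family pathways. The pair is best known from blood progenitors, mast cells, melanocytes and germ cells, and Kit has also been tied to migrating projection neurons in the mouse cortex.

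The sequence just before each gene's first listed start is shown as a description, and its relation to the levels was not tested. Each stretch is 250 bases from RefSeq on the plus strand of GRCm38.p6, at chr5:75574737-75574986 for Kit and chr10:100015571-100015820 for Kitl. Capitals mark the GC box GGGCGG, read as CCGCCC on the other strand, and the TATA box TATAAA.
Kit: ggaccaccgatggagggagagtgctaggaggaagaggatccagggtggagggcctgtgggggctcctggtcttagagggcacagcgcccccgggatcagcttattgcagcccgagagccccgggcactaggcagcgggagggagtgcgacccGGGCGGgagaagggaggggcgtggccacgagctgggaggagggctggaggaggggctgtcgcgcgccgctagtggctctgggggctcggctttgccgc
Kitl: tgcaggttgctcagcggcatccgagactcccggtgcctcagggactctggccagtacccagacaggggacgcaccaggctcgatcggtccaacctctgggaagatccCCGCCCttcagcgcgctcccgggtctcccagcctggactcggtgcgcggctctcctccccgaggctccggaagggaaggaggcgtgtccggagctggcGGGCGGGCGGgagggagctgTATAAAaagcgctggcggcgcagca
The Kit stretch held 1 GC box, 98 to 93 bases before the start, and no TATAAA on either strand. In the Kitl stretch there were 3 GC boxes, of which the pair at 45 to 40 and 41 to 36 bases before the start overlap, and a TATAAA at 25 to 20 bases before the start. GC content was 70.8% for Kit and 69.2% for Kitl, against a median of 52.0% over 27025 promoters of the same length. Across those promoters 32.9% held at least 1 GC box on either strand, 8.4% at least 3, and 13% a TATAAA. The E-box letters CANNTG occurred in 66.0% of all promoters and in neither of these stretches. These matches describe letters and are not measured binding sites. No other gene had exons overlapping Kit or Kitl in the GENCODE M21 annotation. The annotation lists 2 protein-coding transcripts of Kit and 4 of Kitl, while the files give 1 value for each gene.

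Levels are deposited values per 1000000 of their column total (CPM), and column totals ran between 12583677 and 32538995. Differences were tested with limma on log2(deposited value + 1) over 19561 genes, and a gene was called at a Benjamini-Hochberg adjusted p under 0.05. For the population difference the 3 days were the only replication. For E16.5 minus E13.5 both populations of a day stood in as replicates, though they were sorted from the same cortices. Age and the collection of each day therefore cannot be told apart, and the p-values of that comparison measure no spread between animals. Library sizes in reads are unknown because the deposited values had been scaled, so no counting interval is given. The IPN minus non-IPN comparison called 192 genes higher and 472 lower in IPN, and 13 and 183 on log2(CPM + 1). The E16.5 minus E13.5 comparison called 736 higher and 442 lower at E16.5, and 183 and 61 on log2(CPM + 1). Hemoglobin genes took 4.924% of the non-IPN total at E13.5 and at most 0.028% of any other library.

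Kit was higher in IPN than in non-IPN on each of the 3 days. It stood at 115.95 CPM in IPN against 25.67 CPM in non-IPN at E13.5. At E15.5 its level was 190.94 CPM in IPN and 54.39 CPM in non-IPN. At E16.5 the levels were 40.9 CPM in IPN and 19.39 CPM in non-IPN. The IPN library was the higher of each pair, while the ranges over the 3 days overlapped, with 40.9 to 190.94 CPM in IPN and 19.39 to 54.39 CPM in non-IPN. As ratios of CPM, IPN exceeded non-IPN 4.52-fold, 3.51-fold and 2.11-fold in the order of the days. Over the 3 days the limma difference was 1.82 ± 0.27 (SE) on the log2(value + 1) scale, with a 95% interval of 1.22 to 2.43 and an adjusted p of 0.00451. Among all genes tested, 0.982% were called in this direction and 3.39% in either. On log2(CPM + 1) the difference was 1.65 with an adjusted limma p of 0.0698, and without the E15.5 pair it was 1.80 with an adjusted limma p of 0.198, so the call did not hold there. Without limma's trend and robust options the adjusted p was 0.255. In sorted bulk RNA a larger share of cells with the transcript and more transcript per cell cannot be told apart.

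**Figure D1:**
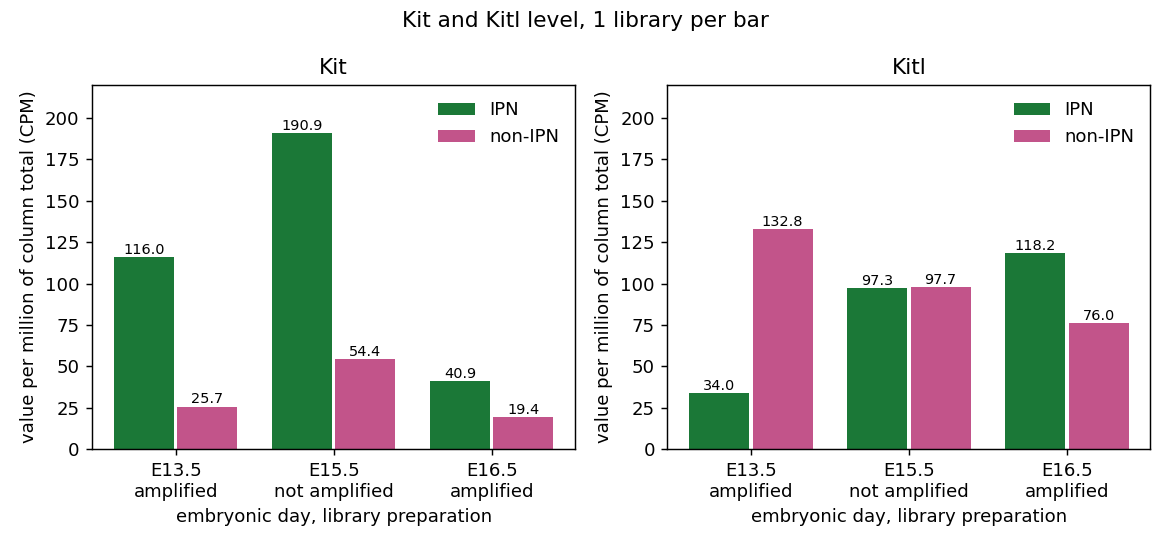
Level of Kit and Kitl in CPM in each of the 6 libraries, with IPN left of non-IPN at each embryonic day and each bar a single library. The Kit bar of IPN was taller than that of non-IPN on every day, while Kitl stood at 34.0 CPM in IPN against 132.85 CPM in non-IPN at E13.5 and at 118.19 CPM in IPN against 76.05 CPM in non-IPN at E16.5.

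On each day few genes had a larger excess in IPN than Kit. Of the 9349 genes with a mean of at least 10 CPM, 2.31% had a higher log2 ratio than Kit at E13.5, with 2.43% on the second day and 3.42% on the last. In level, not corrected for gene length, Kit lay at the 90.5th percentile of tested genes in IPN and the 71.1st in non-IPN at E13.5. The same percentiles were 94.2 in IPN and 76.4 in non-IPN at E15.5, and 78.1 in IPN and 65.1 in non-IPN at E16.5. Between the amplified days, its percentile was lower at E16.5 than at E13.5 in both populations.

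The level of Kit was likewise lower at E16.5 than at E13.5 in both populations. In IPN it was at 40.9 CPM at E16.5 against 115.95 CPM at E13.5, a log2 difference of -1.58 in deposited values. In non-IPN it was at 19.39 CPM at E16.5 against 25.67 CPM at E13.5, a log2 difference of -0.56. The joint limma difference was -1.07 ± 0.33 (SE), with a 95% interval of -1.81 to -0.33, and at an adjusted p of 0.0901 it did not pass. It lay between -1.47 without the non-IPN library of E16.5 and -0.67 without the IPN library of E16.5. Without the IPN library of E13.5 it was -0.7, and without the non-IPN library of that day -1.44. In this comparison 2.26% of all genes were called lower at E16.5. The log2 excess of Kit in IPN was 2.32, 1.86 and 1.29 from the first day to the last. The population by day term, the change of that excess per day, was -0.33 ± 0.16 (SE), with a 95% interval of -0.68 to 0.02 and an adjusted limma p of 0.338. A narrowing of the Kit difference was therefore not called, and its interval includes 0.

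Kitl, the ligand gene, changed sides between the populations. At E13.5 it stood at 34.0 CPM in IPN against 132.85 CPM in non-IPN. At E15.5 the levels were 97.33 CPM in IPN and 97.69 CPM in non-IPN. At E16.5 they were 118.19 CPM in IPN and 76.05 CPM in non-IPN. IPN was thus the lower population at E13.5, level with non-IPN at E15.5 and the higher one at E16.5. The CPM ratios of IPN over non-IPN were 0.256, 0.996 and 1.55 in the order of the days. On the log2(value + 1) scale the differences were -1.82, 0.05 and 0.85. Averaged over days, the limma difference was -0.31 ± 0.42 (SE), with a 95% interval of -1.24 to 0.63 and an adjusted p of 0.83. That average was 0.45 without the E13.5 pair, so its sign rested on this pair.

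The change of the Kitl difference with the day was tested directly. The population by day term was 0.90 ± 0.16 (SE) on the log2 scale per day, with a 95% interval of 0.56 to 1.23 and an adjusted limma p of 0.0126. Genes called upward on this term made up 0.624% of those tested, and those called downward 0.68%. The model leaves 1 residual degree of freedom, and with a pseudocount of 16 the term was 0.88 with an adjusted limma p of 0.196, and without limma's trend and robust options its adjusted p was 0.401. It sets the unamplified E15.5 pair beside the amplified pairs, and no day can be left out of the model. In the amplified pairs alone, the Kitl ratio moved by 2.67 on the log2 scale between E13.5 and E16.5, and 1.72% of the 9349 genes moved further upward. For Kit the same shift was -1.03, and 15.6% of genes moved further downward. Of the 9349 genes, 102 were lower in IPN by at least 1 at E13.5 and higher by at least 0.8 at E16.5, as Kitl was. These cut-offs are unequal and the upper one lies just under Kitl's own 0.85, so the count is a description and not a test.

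**Figure D2:**
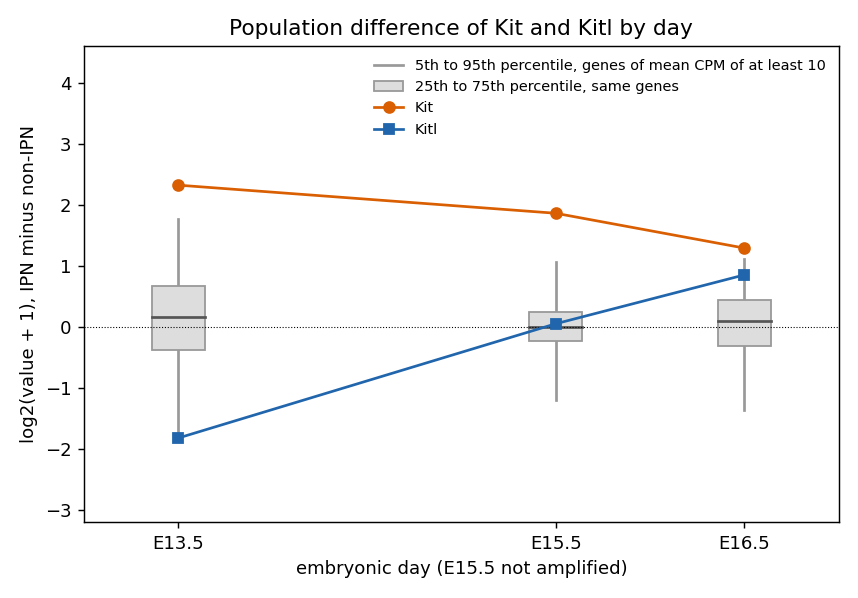
Difference of log2(value + 1), IPN minus non-IPN, for Kit and Kitl at each embryonic day, with days to scale and boxes for the 9349 genes of at least 10 CPM on average. Kit lay above the 95th percentile line on all days, and Kitl was at -1.82, then 0.05, then 0.85.

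Both populations contributed to the Kitl shift, in opposite directions. Within IPN, Kitl was at 118.19 CPM at E16.5 against 34.0 CPM at E13.5, a CPM ratio of 3.48. In non-IPN it was at 76.05 CPM at E16.5 against 132.85 CPM at E13.5, a CPM ratio of 0.572. The corresponding log2 differences of deposited values were 1.71 in IPN and -0.96 in non-IPN. Because these oppose each other, the joint E16.5 minus E13.5 difference was 0.38 ± 0.51 (SE), with a 95% interval of -0.77 to 1.53 and an adjusted limma p of 0.709. Leaving out the IPN library of E13.5 gave -0.76, and leaving out that of E16.5 gave -0.49. In rank, Kitl lay at the 76.2nd percentile of tested genes in IPN and the 92.1st in non-IPN at E13.5. At E15.5 the percentiles were 86.1 in IPN and 85.9 in non-IPN, and at E16.5 they were 90.6 in IPN and 84.8 in non-IPN.

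**Figure D3:**
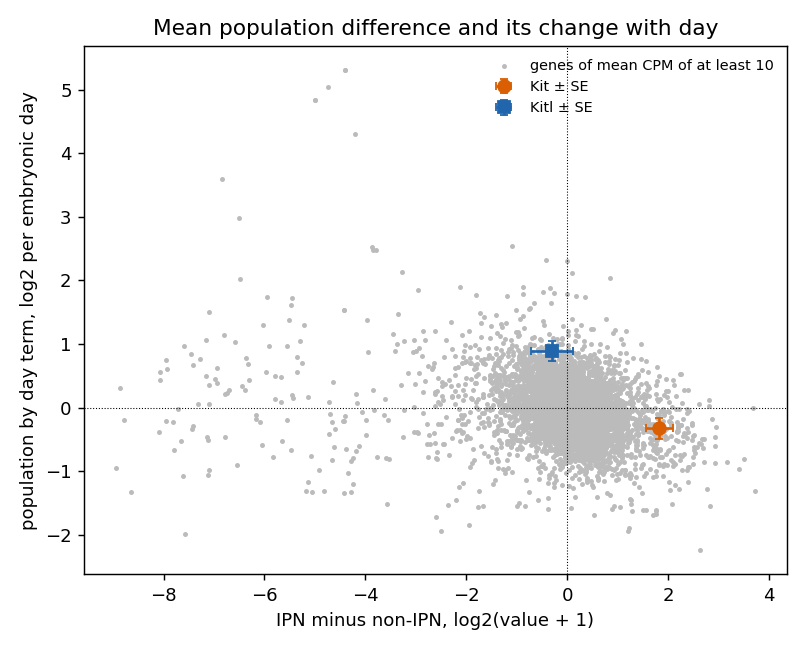
Each point is a gene of at least 10 CPM on average, placed by its IPN minus non-IPN difference and by its population by day term, both on the log2(value + 1) scale, with bars of ± 1 SE for the members. Kit sits at 1.82 and -0.33, and Kitl at -0.31 and 0.90.

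Receptor and ligand were compared with each other only through their population ratios, in which gene length cancels. The log2 ratio of Kit exceeded that of Kitl by 4.14 at E13.5, by 1.82 at E15.5, then by 0.44 at E16.5. The mean of this difference was 2.13 ± 1.87 (SD, n = 3 days). It was above 0 on 3 of 3 days, and an exact two-sided sign-flip permutation test gave p = 0.25, the smallest p that 3 days allow. Receptor and ligand were thus on opposite sides of the sort at E13.5 and both on the IPN side at E16.5.

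Markers of other cells that use Kit or Kitl were low or ran with the sort. The 7 mast cell markers found in the files were under 1 CPM in every library, with 3 to 6 of them at 0. Melanocyte markers summed to 3.23 to 4.72 CPM in IPN and 4.5 to 12.95 CPM in non-IPN. Blood progenitor and erythroid markers summed to 12.02 to 24.52 CPM in IPN, against 12908.12, 139.81 and 25.67 CPM in non-IPN in the order of the days, and 3 of 14 were called lower in IPN, where 2.41% of all genes were. Microglia and macrophage markers summed to 2.26 to 8.27 CPM in IPN and 493.18 to 975.41 CPM in non-IPN, and 12 of 12 were called lower in IPN. Without the E15.5 pair 7 of the 12 and 0 of the 14 were called, without the E13.5 pair 1 of the 14, and on log2(CPM + 1) 8 and 1. The part of these cells in the Kit result was not tested. On the population by day term 3 of 14 blood and 2 of 9 radial glia markers were called upward, as Kitl was, against 0.624% of all genes. Of 10 interneuron markers 1 was called upward and 1 downward on it. Of 10 projection neuron markers 1 was called downward, where 0.68% of all genes were. The radial glia marker Nes, an intermediate filament gene, had log2 ratios of -4.08, 0.39 and 1.08 in the order of the days. Its term was 1.79 per day (adjusted limma p of 0.00151), and Slc1a3 was the other radial glia marker called. The median log2 ratio of the 9 radial glia markers was -2.79, -0.39 and -0.78, so the list as a whole did not change sides. Their median term was 0.54 per day. With a pseudocount of 16 the blood and radial glia counts were 1 and 0, and on log2(CPM + 1) 5 and 3. Of all 19561 genes those settings called 3 and 517 upward, against 122 on log2(value + 1). The part of blood cells or radial glia in the Kitl result was not tested. Endothelial markers summed to 1.42 to 4.61 CPM in IPN and 3.18 to 7.65 CPM in non-IPN, and pericyte and meningeal markers to 4.72 to 19.49 CPM in IPN and 6.29 to 15.66 CPM in non-IPN.

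The sort itself ran along projection neuron genes, of which 7 of 10 were called higher in IPN, and interneuron genes, of which 10 of 10 were called lower, against 0.982% and 2.41% of all genes. The projection neuron count was 1 on log2(CPM + 1), on totals without hemoglobin genes and without the E15.5 pair, 3 with a pseudocount of 16 and 4 without the E13.5 pair. The interneuron count was at least 8 in each of these. Projection neuron markers summed to 4161.39, 5577.49 and 5471.79 CPM in IPN in the order of the days, against 651.22, 816.25 and 2823.02 CPM in non-IPN. Interneuron markers summed to 27.47, 72.59 and 64.98 CPM in IPN, against 1580.06, 5292.94 and 2913.85 CPM in non-IPN. Within non-IPN the projection neuron sum was higher at E16.5 than at E13.5, while the Kit difference was smaller at E16.5, and its part in the Kit result was not tested. Radial glia markers summed to 1247.25, 377.21 and 549.14 CPM in IPN, against 4318.06, 632.6 and 1064.71 CPM in non-IPN.

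Of the 13 class III receptors and ligands, Kit was the single gene called higher in IPN and Csf1r the single gene called lower, and the median limma difference was -0.31, against -0.02 over all genes. Over all genes 2.41% were called lower in IPN. Csf1r, the receptor of macrophages and microglia, stood at 0.84, 0.28 and 0.41 CPM in IPN, against 118.33, 238.26 and 71.68 CPM in non-IPN, in the order of the days. Its limma difference was -7.81 ± 0.6 (SE), with an adjusted p of 0.00012. Csf1, a ligand of that receptor, had a course like that of Kitl, with 1.68, 8.48 and 5.95 CPM in IPN against 17.59, 12.85 and 2.23 CPM in non-IPN. Its population by day term was 1.56 ± 0.36 (SE) per day with an adjusted limma p of 0.0472. Kitl and Csf1 were thus the genes of the family called on that term, both upward, where 0.624% of all genes were. The Csf1 call missed the threshold at a mean of at least 1 CPM (adjusted limma p of 0.0572) and with a pseudocount of 16 (adjusted limma p of 0.199). It was also lost without limma's trend and robust options and without the replicate block of days. No gene of the family was called between E16.5 and E13.5, where 6.02% of all genes were.

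The other receptors and ligands of the family gave no call. Pdgfc, a ligand of the platelet-derived growth factor receptors, was at 27.86, 10.66 and 18.74 CPM in IPN, against 29.96, 3.83 and 16.85 CPM in non-IPN. Its limma difference of 0.64 ± 0.42 (SE) had an adjusted p of 0.579. Pdgfra and Pdgfrb, the receptors for those ligands, reached at most 1.11 and 1.82 CPM, each in a non-IPN library. Pdgfa and Pdgfb reached at most 6.82 and 5.26 CPM, each in the unamplified E15.5 non-IPN library, and Pdgfd at most 0.48 CPM. Flt3 reached 1.29 CPM in IPN at E13.5 and at most 0.08 CPM elsewhere, its ligand Flt3l reached 0.8 CPM, and Il34, another Csf1r ligand, 0.16 CPM. Flt3, Pdgfra and Pdgfrb were thus under 2 CPM in all 6 libraries.

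**Figure D4:**
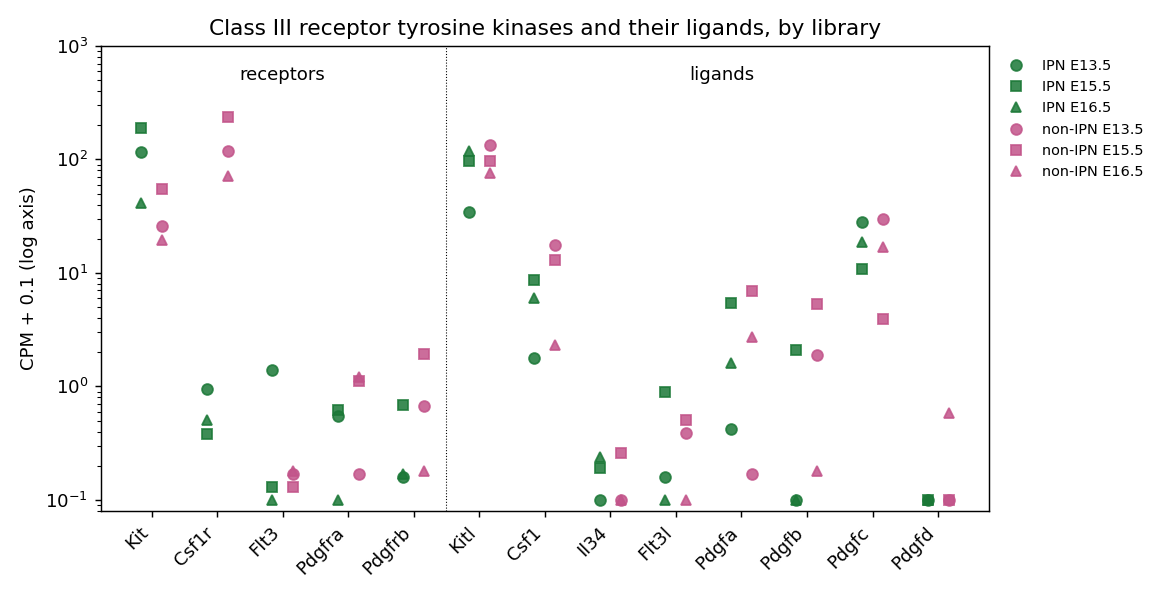
Levels, as CPM + 0.1, of the 13 class III receptors and ligands in the 6 libraries, on a log axis and not corrected for gene length, so that levels are read within a gene. Csf1r stands apart between the populations, at 0.28 to 0.84 CPM in IPN and 71.68 to 238.26 CPM in non-IPN.

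Among 42 adaptors and effectors of Kit signalling, 1 was called higher and 6 lower in IPN, against 0.982% and 2.41% of all genes, with a median limma difference of 0.03. Among the lower genes were the Src family kinase Lyn (-5.55), the kinases Fes (-3.37) and Btk (-4.48), the exchange factor Vav1 (-6.38) and the phospholipase Plcg2 (-4.56), all as limma log2 differences. These genes are also used by macrophages and other blood cells, and the macrophage marker sum was 2.26 to 8.27 CPM in IPN and 493.18 to 975.41 CPM in non-IPN. The part of such cells in these values was not tested. The list's count of lower genes was 6 without the E16.5 pair, and 1 without the E15.5 or the E13.5 pair, on log2(CPM + 1) or with a pseudocount of 16. Lyn was at 2.33, 0.18 and 0.96 CPM in IPN against 68.71, 32.81 and 32.03 CPM in non-IPN. Nras, a small GTPase of the Ras pathway, was not called in any comparison, at 1149.98, 187.04 and 747.28 CPM in IPN and 1037.88, 158.84 and 639.8 CPM in non-IPN.

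Between E16.5 and E13.5, 6 effectors were called higher at E16.5 and 1 lower, where 3.76% of all genes were called higher. Among the genes that rose were the regulatory subunit Pik3r1 (1.33), the phospholipase Plcg1 (2.3), the kinases Src (1.8) and Prkca (1.78) and the adaptor Crkl (2.35), all as limma log2 differences. The adaptor Shc1 fell by 2.73 on the log2 scale. Pik3r1 stood at 107.52 CPM at E16.5 against 28.24 CPM at E13.5 in IPN, and at 62.7 CPM against 32.17 CPM in non-IPN. With any 1 amplified library or the E15.5 pair left out, on log2(CPM + 1) or with a pseudocount of 16, 0 effectors were called in this limma comparison. On the population by day term limma called 0 effectors, where 1.3% of all genes were called. With median-of-ratios scaling it called 3 upward and 1 downward, where 878 and 680 of 19561 genes were called.

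Among 16 negative regulators, Inpp5d was called lower in IPN and none higher, against 2.41% and 0.982% of all genes, with a median limma difference of -0.66. Inpp5d, the lipid phosphatase SHIP1 of blood cells, was at 0.0, 0.25 and 0.34 CPM in IPN against 11.58, 39.34 and 12.08 CPM in non-IPN, a limma difference of -6.37 ± 0.81 (SE, adjusted p = 0.00199). The adaptor Grb10, an imprinted inhibitor of receptor kinase signalling, was lower at E16.5 than at E13.5. It was at 46.44 CPM at E16.5 against 265.44 CPM at E13.5 in IPN, and at 83.52 CPM against 786.42 CPM in non-IPN, with a limma difference of -2.99 ± 0.3 (SE, adjusted p = 0.00111). The ubiquitin ligase Cbl (1.48) and the Ras pathway inhibitors Spred1 (1.83) and Spred2 (4.25) rose, against 3.76% of all genes. On log2(CPM + 1) 1 regulator was called higher at E16.5, and with a pseudocount of 16 none was. The Inpp5d call was lost without the E15.5 pair. Without the E15.5 pair Grb10 was the 1 regulator called with age, and 0 were called with any 1 amplified library left out. None of the 16 was called on the population by day term, where 1.3% of all genes were.

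None of 7 proteases listed for cleavage of Kit or Kitl was called in any of the 3 comparisons. Of all genes, limma called 3.39% between populations, 6.02% between E16.5 and E13.5, and 1.3% on the population by day term. On log2(CPM + 1), with median-of-ratios scaling and on totals without hemoglobin genes, 1 protease was called downward on that last term. Of 19561 genes these settings called 389, 680 and 429 downward on it. Adam10, the listed protease of the highest mean CPM, was at 340.54, 133.16 and 284.45 CPM in IPN and 360.57, 196.78 and 366.27 CPM in non-IPN. Adam17, which sheds Kit in other cells, was the lower in IPN on each day, at 38.78, 26.71 and 26.06 CPM against 71.71, 45.31 and 31.87 CPM in non-IPN, with a limma difference of -0.51 ± 0.28 (SE, adjusted p = 0.492).

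Of 16 transcription factors tied to Kit in other lineages, 4 were called lower in IPN, where 2.41% of all genes were, and none was called higher. They were Tal1 (-5.2), Lmo2 (-2.41), Lyl1 (-4.03) and Runx1 (-6.54), which form or join regulatory complexes in blood progenitors, all as limma log2 differences. Lmo2 was at 4.98, 3.35 and 6.02 CPM in IPN against 50.26, 12.56 and 32.82 CPM in non-IPN. The other 3 were under 1 CPM in every IPN library. Without the E15.5 pair none of the 4 was called, and the count was 1 without the E13.5 pair, on log2(CPM + 1), with a pseudocount of 16 or on totals without hemoglobin genes. The part of blood cells in these values was not tested. Mitf, the melanocyte regulator of Kit, had a limma difference of -2.76 ± 0.83 (SE) and an adjusted p of 0.13. No factor of this list was called by limma on the other comparisons. Of all genes, 6.02% were called between E16.5 and E13.5 and 1.3% on the population by day term. On log2(CPM + 1), 2 factors were called upward on that term, where 517 of 19561 genes were.

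**Figure D5:**
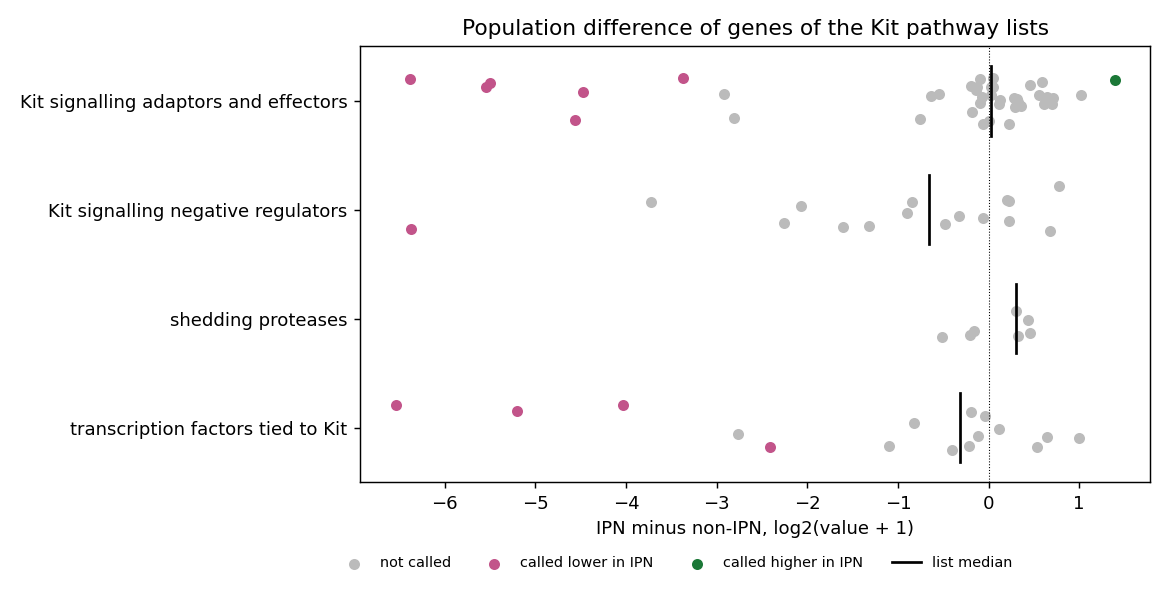
Limma difference, IPN minus non-IPN on the log2(value + 1) scale, of every gene of 4 lists around Kit signalling, with called genes colored and list medians as bars. All but 1 of the called genes lie to the left of 0, and the medians lie between -0.66 and 0.3.

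The genes closest to Kit in profile over the 6 libraries were Igsf8, Rprm, Rasl11b, Nkd1 and Uchl1, by the root mean square difference of mean-centred log2(CPM + 1). Igsf8, an immunoglobulin superfamily membrane protein, was the closest at 0.27, against a median of 1.3 over all other genes of at least 10 CPM. It stood at 77.56, 121.98 and 38.78 CPM in IPN and 27.24, 47.95 and 18.44 CPM in non-IPN. The genes closest to Kitl were Jak1, Fam50a, Klhl5, Sp1 and Mterfd2. Jak1, a cytokine receptor kinase, differed by 0.23, against a median of 0.94. Its levels were 30.18, 85.07 and 67.78 CPM in IPN and 89.87, 84.17 and 64.05 CPM in non-IPN. Pearson r over the 6 libraries was 0.995 for Igsf8 with Kit and 0.936 for Jak1 with Kitl, and the libraries share days, preparation and scaling. Both genes were picked for closeness over these same libraries, so a high r follows from the choice and shows no joint regulation.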

How the data were processed

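RNA of sorted cells was sequenced in 6 libraries, 1 per population and day. Libraries followed Illumina's TruSeq kit, and the E13.5 and E16.5 RNA was amplified with the Ovation RNA-Seq System V2, per the labels' protocols. CASAVA 1.9, TopHat 1.2.0, SAMtools 0.1.18, edgeR and the mouse build mm9 appear in the submitters' processing notes, without their roles. How reads were counted and scaled is not given in the sources used here. The deposited values are a signal, whole numbers scaled by the authors and not raw counts, as equal upper quartiles within each preparation show (438 to 444, and 1501 and 1502).

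Files were joined by symbol. Of 20373 rows, 6 rows of 3 symbols listed more than once were dropped, and 19561 genes above 0 in a library were tested. The tool was limma 3.58.1 (R 4.3.3) with its robust and trend settings, applied to log2(value + 1), so that folds of low genes are understated. The model held population and day, and a second model added population by day as a number. The script was tested on simulated data. Day pairs the libraries, since both populations came from the same cortices per the labels. Deviations from population means correlated at 0.561, 0.83 and 0.431 over the 3 days. A pair also shares age and preparation, so these correlations cannot show an effect of the shared cortices. No 2 libraries held identical values.

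The members and gene lists were chosen with earlier results of these data known. Genes named are the whole family list, the called members of the other lists with some of the highest in level, and the 5 nearest profiles of Kit and Kitl. The listed Fer and Hras were read as Fert2 and Hras1, and Tpsab1 was not matched. Some genes of the effector list are not reported here by name. Alternatives were CPM and median-of-ratios scaling, pseudocounts, filters on low values, plain limma, leaving out libraries or days, no block, and totals without 8 hemoglobin genes. RefSeq promoters are in GRCm38.p6, so no mm9 coordinates are given.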

Additional observations from a re-analysis of the deposited data

Results flagged for a closer look

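The IPN minus non-IPN difference of Kitl itself differed between embryonic days. It changed by 0.90 ± 0.16 (SE) on the log2(value + 1) scale per day, with an adjusted limma p of 0.0126. The difference was -1.82 at E13.5, near 0 at E15.5 (0.05, with a CPM ratio of 0.996) and 0.85 at E16.5. The unamplified E15.5 pair is the middle point, and the amplified pairs are the ends.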

How the results depend on the processing

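The Kit population difference stayed positive under every alternative tried. Adjusted limma p was 0.0698 on log2(CPM + 1) (1.65), 0.255 without the trend and robust options (1.82), 1.0 without the replicate block of days (1.82), and 0.0674 on totals without hemoglobin genes (1.63), which was chosen after seeing the data. Leaving out 1 day gave 1.58 to 2.09 for Kit, with the call lost without E15.5, and -0.89 to 0.45 for Kitl, positive without E13.5. The Kitl difference of E16.5 minus E13.5 ranged from -0.76 to 1.51 when 1 library or the E15.5 pair was left out. The Kitl population by day term kept its sign, but missed the threshold with a pseudocount of 16 (0.88), without the trend and robust options (0.90) and without the replicate block (0.90). Kit minus Kitl ranged from 1.13 to 2.98 when 1 day was left out.

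Genes called between populations numbered 664, against 196 on log2(CPM + 1), 220 with a pseudocount of 16, 358 at a mean of at least 10 CPM, 199 without hemoglobin in the totals, 54 to 595 with 1 day left out, 0 in plain limma (1946 at an unadjusted p under 0.05) and 0 without the replicate block (676). For age, 1178 became 244 on log2(CPM + 1), 200 with a pseudocount of 16, 215 without hemoglobin, 0 in plain limma (3414), and 0 to 97 with libraries left out. For population by day, 255 became 906 on log2(CPM + 1), 1558 with median-of-ratios scaling, 3 and 530 with pseudocounts of 16 and 0.5, 135 at a mean of at least 10 CPM, 1114 without hemoglobin (685 upward and 429 downward, against 122 and 133), 0 in plain limma (2321) and 0 without the replicate block (186). No day could be left out of that term, since no residual degrees of freedom remain. The other 73 calls on listed genes held in 455 of 853 alternatives, missed the threshold in 398 and reversed in 0. The cause of these shifts was not tested. The reads behind each value are unknown, which limits low genes most.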
